A study of Mus musculus with 90 samples.

Results

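Tumours that shrank under an antibody against PD-L1 were compared with tumours that grew on under the same antibody, in 19 of the 90 arrays of a mouse melanoma study. The 19 arrays are those whose title numbers lie in the smaller of the study's number ranges (called the smaller title series, 25 arrays) and whose treatment label is Responders (10 arrays) or Non-responders (9 arrays), written Responder and NonResponder from here on. Every tumour was a subcutaneous melanoma allograft with the labelled genotype Hgftg;Cdk4R24C/R24C, that is, a transgene of the growth factor gene Hgf and the R24C form of the kinase Cdk4, and the labelled mouse strain is B6.cBrd. Every mouse of both groups received the antibody against mouse PD-L1 (mIgG1 with the D265A change) in PBS at 10 mg/kg, so both groups are treated groups and no untreated tumour enters the comparison. A tumour counted as Responder when its volume fell by 5% or more, and was taken after 2 to 12 doses. NonResponder tumours had grown on and were taken at times matched to these. The other arrays of the same number range are 3 Stabilization and 3 Relapse tumours, which are in neither group. The promoter of the Hgf transgene, the age of the mice, the number of doses each tumour had received and what the number ranges stand for are not given in the sources used here. Nothing in the labels says that each array is a separate mouse, so the p-values measure the spread between these samples.

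PD-L1, encoded by Cd274, is a surface protein that binds PD-1 (Pdcd1) on activated T cells and dampens their signalling, and an antibody against it removes that brake. T cells and natural killer cells that meet their target release interferon gamma, which switches on guanylate-binding proteins, chemokines, the antigen processing machinery and Cd274 itself in the cells around them. Hgf is the ligand of the receptor Met, a growth signal for melanocytes, and the R24C form of Cdk4 no longer responds to the inhibitor encoded at Cdkn2a.

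Values are RMA log2 intensities, so a difference of 1 is a doubling, and a gene was called changed at a Benjamini-Hochberg adjusted p under 0.05 over 18193 genes in limma. A pair of arrays stood apart. Responder replicates 3 and 4 had mean correlations of 0.904 and 0.883 with all other arrays of the study, while the other 17 arrays lay between 0.965 and 0.983. Every comparison is therefore given with all 19 arrays and with the 17 arrays that remain without them (8 Responder, 9 NonResponder). Differences are Responder minus NonResponder on the log2 scale ± SE with all 19 arrays, and the 17-array value follows in parentheses or is named. The array medians of the 19 samples ranged from 5.80 to 5.90, and the number of arrays limits the precision.

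Markers of the melanoma cells were low in that pair of arrays. Sox10, the transcription factor of the melanocyte lineage, was at 7.25 in replicate 3 and 7.59 in replicate 4. It ranged over 10.66 to 11.78 (median 11.32) in the other 8 Responder arrays and over 10.53 to 11.71 (median 11.01) in the NonResponder arrays. Hgf, whose probe set may read the transgene, the mouse's own gene or both, was at 6.34 and 5.63 in the pair, against 10.86 to 11.19 (median 11) in the other Responder arrays and 10.59 to 12.09 (median 11) in the NonResponder arrays. Each of the arrays in the pair was also high for a different set of other tissue markers. In replicate 3 the lymph node markers (the high endothelial venule mucin Glycam1 and the follicle chemokine Cxcl13 among them) had a mean log2 value of 8.73, against 5.15 to 5.68 in the other 8 Responder arrays and 4.97 to 5.41 in the NonResponder arrays. Its B cell and plasma cell markers had a mean of 10.63, where the other Responder arrays had 6.49 to 7.26. Its adipocyte markers had a mean of 10.27. Adipocyte markers also varied among the remaining arrays, from 5.56 to 9.01 in the other 8 Responder arrays and from 5.41 to 7.06 in NonResponder. Replicate 4 had the highest mean of the skeletal muscle markers, at 12.86, although muscle markers also varied among the remaining arrays, from 5.23 to 10.36 in Responder and from 5.31 to 9.02 in NonResponder. In bulk tissue, fewer cells of a type and less RNA per cell cannot be told apart. What share of the 19-array differences comes with these tissue markers was not tested, and the 17-array values are measured without both arrays. The degree of RNA breakdown, read as the 3′ minus 5′ difference of the actin control probe sets (log2), was 0.51 ± 0.30 (SD, n = 10) in Responder and 0.47 ± 0.23 (SD, n = 9) in NonResponder, and was 0.56 and 0.93 in the pair. The same difference of the Gapdh probe sets was 0.12 ± 0.32 in Responder and -0.08 ± 0.10 in NonResponder, and 0.24 and 0.49 in the pair.

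**Figure D1:**
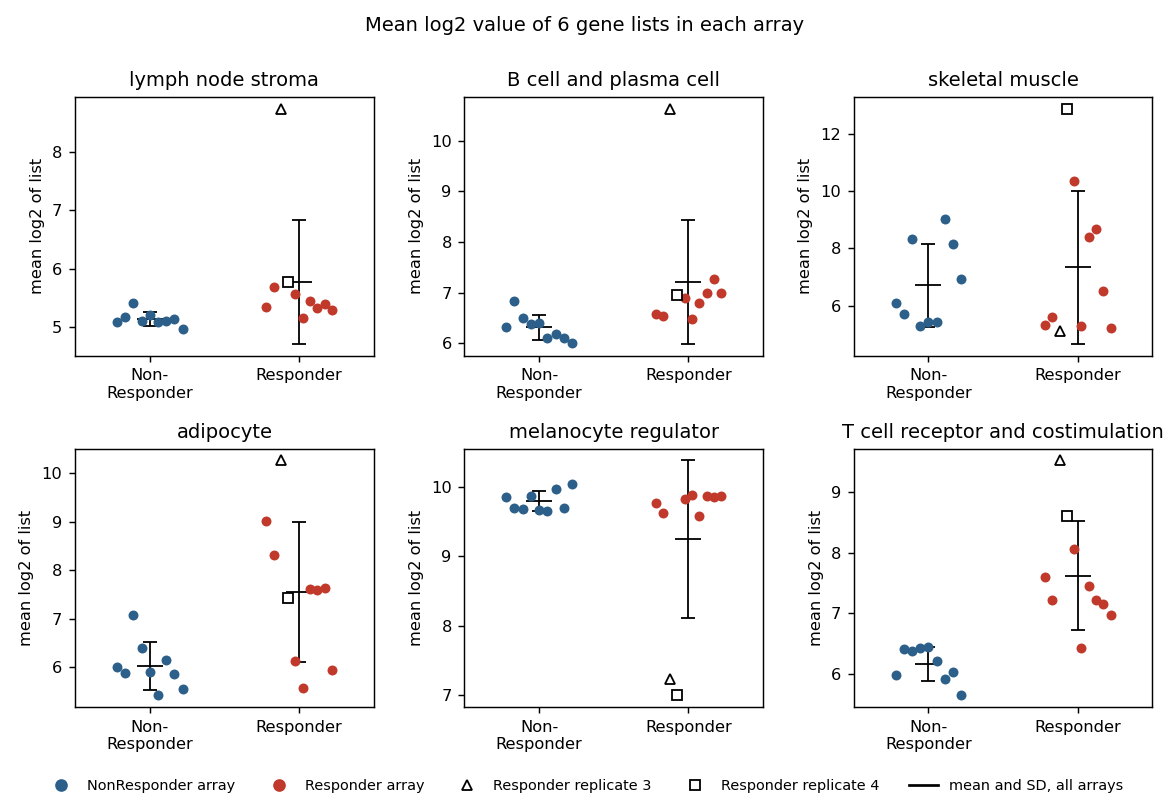
Mean log2 value of 6 gene lists in each of the 19 arrays, with NonResponder arrays in blue, Responder arrays in red, and open symbols for Responder replicates 3 (triangle) and 4 (square); black bars give the mean and SD over all arrays of a group. Replicate 3 is high for lymph node, B cell and adipocyte markers, replicate 4 for skeletal muscle markers, and both are low for melanocyte regulators, while T cell markers are higher in Responder arrays with and without them.

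With all 19 arrays, 3141 genes differed between Responder and NonResponder tumours, which is 17.3% of those tested. Of these, 1620 were higher in Responder (8.90% of all genes tested) and 1521 were lower (8.36%). The rises were the larger changes, since 596 genes rose and 54 fell by more than 2-fold. Without replicates 3 and 4, 2361 genes were called (13%), of which 1441 were higher (7.92%) and 920 lower (5.06%), with 333 rises and 6 falls above 2-fold. Both comparisons called 2036 genes with the same sign, which is 64.8% of the 19-array calls and 86.2% of the 17-array calls. These were 1270 rises and 766 falls. Of the 1105 genes called only with all 19 arrays, 755 were lower in Responder. Complete separation of the groups was rare: 105 genes (0.577%) were higher in every one of the 10 Responder arrays than in any NonResponder array, and 19 (0.104%) lower. In the 17 arrays these numbers were 130 (0.715%) and 22 (0.121%). Counts depended on single arrays, and ran from 1423 genes without NonResponder replicate 8 to 4429 without Responder replicate 7, and from 1399 without Responder replicate 1 to 3111 without Responder replicate 7 in the 17-array comparison.

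Genes induced by interferon gamma were among the largest rises. Of 18 measured members of the interferon gamma response list, 14 rose and none fell with 19 arrays (median difference 0.89), and 17 rose with 17 arrays (median 0.94), where the median of all genes was -0.08 and -0.05 and where 8.90% and 7.92% of all genes were called higher. Gbp2b, a guanylate-binding protein that attacks intracellular pathogens, ranged over 8.25 to 10.37 (median 9.39) in the Responder arrays and over 5.21 to 7.73 (median 6.43) in the NonResponder arrays. All 10 Responder arrays lay above all 9 NonResponder arrays. The difference was 2.82 ± 0.35 (SE), a 7.05-fold rise with an adjusted p of 0.000192 in limma, and 2.93 ± 0.36 with 17 arrays. Ubd, the ubiquitin-like protein FAT10, spanned 9.97 to 12.09 (median 10.81) in Responder and 6.30 to 9.68 (median 8.31) in NonResponder, again without overlap, and rose by 2.77 ± 0.41 (adjusted p = 0.000505; 2.68 ± 0.41 with 17 arrays). Gbp8 rose by 2.44 ± 0.28 (17 arrays, 2.28 ± 0.27) and Irf8, a transcription factor of macrophages and dendritic cells, by 1.89 ± 0.20 (17 arrays, 1.72 ± 0.18), both with no overlap of the groups. Igtp, an immunity-related GTPase, was already high in NonResponder at 10.95 to 11.52 (median 11.30) and reached 11.63 to 12.76 (median 12.13) in Responder, a rise of 0.92 ± 0.13 (17 arrays, 1.0 ± 0.13). The exception in the 17-array comparison was the inducible nitric oxide synthase Nos2, with a difference of -0.06 ± 0.09. The 14 calls fell to 12 at the lowest when single arrays were left out, and stayed at 17 throughout in the 17-array comparison.

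The promoters of many of these genes hold the letters of a DNA element through which interferons act. Interferon regulatory factors bind the interferon-stimulated response element (ISRE), searched here as GAAANNGAA on 1 strand or TTCNNTTTC on the other. Windows of 250 bases upstream of the start site (RefSeq, GRCm38.p6) were available for 12 of the 18 genes. These genes have 15 windows in all. The ISRE letters were in 9 of the 15 windows and in 7.13% of all 32851 windows. The 9 windows belong to 9 of the 12 genes, and those without a match were Irf1, Irf8 and Ubd. A match is a description of the letters, not a bound site. The windows of Gbp2b, of the chemokine gene Cxcl9 and of Socs1, an inhibitor of cytokine signalling that rose by 0.84 ± 0.17 (17 arrays, 0.84 ± 0.13), are printed below, 5′ to 3′ on the gene's own strand, to show where the matches lie, with the matching letters in capitals. The window of Gbp2b is chr3:142594597-142594846 (plus strand), that of Cxcl9 chr5:92328080-92328329 (minus strand) and that of Socs1 chr16:10785537-10785786 (minus strand).
Gbp2b: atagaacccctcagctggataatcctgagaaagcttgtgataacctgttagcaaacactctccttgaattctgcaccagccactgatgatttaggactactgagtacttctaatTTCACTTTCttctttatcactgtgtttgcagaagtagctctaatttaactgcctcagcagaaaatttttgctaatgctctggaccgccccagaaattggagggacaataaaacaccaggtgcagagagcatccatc
Cxcl9: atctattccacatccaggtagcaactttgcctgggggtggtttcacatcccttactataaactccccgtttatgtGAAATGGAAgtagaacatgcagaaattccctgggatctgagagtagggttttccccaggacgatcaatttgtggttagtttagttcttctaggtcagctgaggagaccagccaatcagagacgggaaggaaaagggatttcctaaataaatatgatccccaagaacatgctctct
Socs1: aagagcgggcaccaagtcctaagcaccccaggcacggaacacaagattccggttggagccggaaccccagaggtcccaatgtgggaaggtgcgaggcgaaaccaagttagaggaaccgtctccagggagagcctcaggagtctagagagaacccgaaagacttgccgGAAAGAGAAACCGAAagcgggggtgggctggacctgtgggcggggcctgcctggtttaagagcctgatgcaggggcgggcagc
Gbp2b and Cxcl9 hold 1 match each, and Socs1 holds 2 that overlap.

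Genes of the type I interferon response, which share part of their promoter elements with the interferon gamma genes, were called in different numbers by the 2 comparisons. Of 17 measured members 1 rose with 19 arrays, where 8.90% of all genes rose, and 5 with 17, where 7.92% rose. None fell in either, and the medians were -0.07 and 0.11. When each array was centred on its median, 0 rose and 1 fell with 19 arrays, and 3 rose and 2 fell with 17. Of all 18193 genes, 1408 rose and 5824 fell with 19 centred arrays, and 1239 rose and 4451 fell with 17. Irf7, the regulator of type I interferon genes, rose by 0.44 ± 0.15 with 19 arrays and 0.58 ± 0.12 with 17 (adjusted p = 0.00480). The 19-array call of Irf7 was lost in 12 of the 19 comparisons that left out 1 array (adjusted p = 0.0788 without NonResponder replicate 2). Oasl2, an antiviral oligoadenylate synthetase-like protein, passed the test only without replicates 3 and 4 (0.68 ± 0.14, adjusted p = 0.00375), and was at 8.33 and 9.47 in these. The range of Oasl2 was 9.17 to 10.18 (median 9.92) in the other Responder arrays and 8.66 to 9.37 (median 9.19) in NonResponder.

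**Figure D2:**
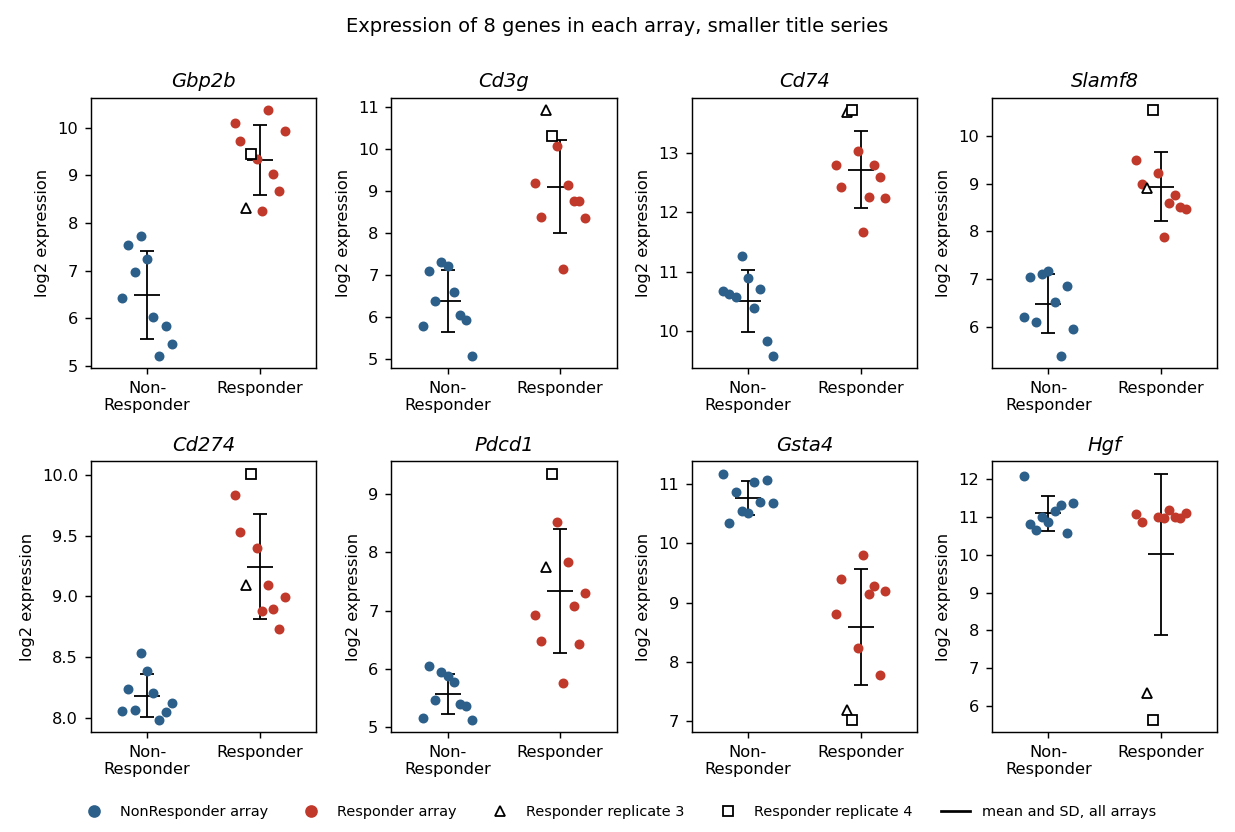
log2 expression of 8 genes in each of the 19 arrays, with NonResponder arrays in blue, Responder arrays in red and open symbols for Responder replicates 3 (triangle) and 4 (square); black bars give the mean and SD over all arrays of a group. Gbp2b, Cd74, Slamf8 and Cd274 separate the groups completely upward and Gsta4 downward, whereas Hgf overlaps between the groups and is low in Responder replicates 3 and 4, at 6.34 and 5.63.

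The machinery that loads peptides on class I molecules rose as a group. Of 13 measured members 11 rose with 19 arrays and 12 with 17, and none fell. The share of all genes that rose was 8.90% with 19 arrays and 7.92% with 17. Tap1 and Tap2, the partners of the transporter that moves peptides into the endoplasmic reticulum, rose by 1.07 ± 0.15 (17 arrays, 0.99 ± 0.15) and 1.24 ± 0.20 (17 arrays, 1.13 ± 0.20). Tap1 ranged over 10.34 to 11.21 (median 10.70) in Responder and 9.34 to 10.25 (median 9.68) in NonResponder, with no overlap. Tapbpl, an editor of the peptide load, rose by 0.94 ± 0.12 (adjusted p = 0.000271; 17 arrays, 0.88 ± 0.13) and Tapbp, which holds the transporter and the class I molecule together, by 0.96 ± 0.14 (17 arrays, 0.86 ± 0.13). Nlrc5, the transactivator of class I genes, rose by 0.60 ± 0.11 (17 arrays, 0.64 ± 0.11). The light chain B2m was the member that passed in neither comparison, at 0.15 and 0.15.

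Class II molecules, which present peptides to CD4 T cells, rose as well. Of 9 measured members 6 rose with 19 arrays, at a median of 1.73, and all 9 with 17 arrays, at a median of 1.57. Of all genes, 8.90% rose with 19 arrays and 7.92% with 17. Cd74, the invariant chain, ranged over 11.67 to 13.72 (median 12.69) in the Responder arrays and 9.59 to 11.27 (median 10.63) in the NonResponder arrays. The groups did not overlap, and Cd74 was 4.63-fold higher in Responder (2.21 ± 0.25, adjusted p = 9.33e-05; 1.97 ± 0.21 with 17 arrays). H2-Ab1 rose by 2.13 ± 0.25 (17 arrays, 1.90 ± 0.22), H2-Eb1 by 2.12 ± 0.26 (17 arrays, 1.89 ± 0.23), H2-Aa by 1.73 ± 0.19 (17 arrays, 1.57 ± 0.17) and the peptide exchange factor H2-DMa by 2.07 ± 0.24 (17 arrays, 1.81 ± 0.19), each with all 10 Responder arrays above all NonResponder arrays. The mean of the class II list was 12.07 in replicate 3, above the other Responder arrays, and the list's 17-array rises are measured without it.

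So did T cell genes. Of 15 measured members of the T cell receptor and costimulation list, 12 rose with 19 arrays and 13 with 17, and none fell. The shares of all genes that rose were 8.90% and 7.92%. The median difference of the list was 1.56 with 19 arrays and 1.12 with 17. Cd3g, the CD3 gamma chain of the receptor complex on T cells, ranged over 7.15 to 10.94 (median 8.97) in Responder and 5.07 to 7.31 (median 6.39) in NonResponder. Responder replicates 3 and 4 were at 10.94 and 10.32, the highest values, and 9 of 10 Responder arrays lay above every NonResponder array. The difference was 2.73 ± 0.41 (adjusted p = 0.000602), and 2.35 ± 0.34 (adjusted p = 0.000268) with 17 arrays. The CD8 coreceptor chains Cd8b1 and Cd8a rose by 2.23 ± 0.37 and 1.77 ± 0.32, and by 1.89 ± 0.30 and 1.43 ± 0.24 with 17 arrays. Cd2 and Cd5, surface receptors of T cells, rose by 1.95 ± 0.33 (17 arrays, 1.63 ± 0.25) and 1.95 ± 0.38 (17 arrays, 1.46 ± 0.20). Cd4, the coreceptor of helper T cells, did not pass in either comparison, at 0.42 and 0.15.

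Effector genes of killer lymphocytes followed the same direction. Of 18 measured members 15 rose with 19 arrays and 14 with 17, at medians of 1.51 and 1.4. Over all genes 8.90% and 7.92% rose. Tbx21, the transcription factor T-bet, ranged over 5.06 to 8.52 (median 6.47) in Responder and 3.85 to 4.75 (median 4.46) in NonResponder and rose by 2.30 ± 0.38 (17 arrays, 1.89 ± 0.29), with no overlap of the groups. Prf1, the pore-forming perforin, rose by 1.4 ± 0.21 and by 1.38 ± 0.22 with 17 arrays, also with no overlap. Gzmb (granzyme B) rose by 1.92 ± 0.31 (17 arrays, 1.80 ± 0.31), the granule protein Nkg7 by 2.04 ± 0.30 (17 arrays, 1.85 ± 0.29) and the cathepsin inhibitor Cst7 by 2.02 ± 0.30 (17 arrays, 1.72 ± 0.24). The gene of interferon gamma itself, Ifng, rose by 2.02 ± 0.35 (adjusted p = 0.00135) and by 2.10 ± 0.34 with 17 arrays. It ranged over 6.14 to 8.25 (median 7.67) in Responder and 4.03 to 6.52 (median 5.17) in NonResponder.

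Both partners of the blocked interaction were higher in shrinking tumours. Cd274 ranged over 8.73 to 10.01 (median 9.09) in Responder and 7.98 to 8.53 (median 8.13) in NonResponder, with all 10 Responder arrays above all NonResponder arrays. It rose by 1.06 ± 0.15, or 2.09-fold (adjusted p = 0.000458 in limma; two-sided exact permutation p = 2.16e-05, from 2 of 92378 groupings). With 17 arrays the rise was 0.99 ± 0.13 (exact permutation p = 4.11e-05, from 1 of 24310 groupings). Pdcd1 ranged over 5.76 to 9.34 (median 7.19) in Responder and 5.13 to 6.05 (median 5.47) in NonResponder, and 9 of 10 Responder arrays lay above all NonResponder arrays. Its rise was 1.77 ± 0.35 (adjusted p = 0.00348; exact permutation p = 0.000173) and 1.47 ± 0.28 with 17 arrays (exact permutation p = 0.000206). Pdcd1lg2, the second ligand of PD-1, rose by 1.44 ± 0.26 (adjusted p = 0.00186; 17 arrays, 1.32 ± 0.26), and Cd80, which can bind PD-L1, differed by 0.16 ± 0.08 (adjusted p = 0.127; 17 arrays, 0.17 ± 0.08).

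The list of inhibitory receptor and regulatory T cell genes is a mixed one that holds Pdcd1. Of its 13 measured genes, 9 rose with 19 arrays and 8 with 17, where 8.90% and 7.92% of all genes rose. Havcr2, which encodes TIM-3, rose by 1.33 ± 0.25 (17 arrays, 1.17 ± 0.24), the ectonucleotidase Entpd1 (CD39) by 1.47 ± 0.23 (17 arrays, 1.22 ± 0.17), the costimulatory receptor Tnfrsf18 (GITR) by 1.16 ± 0.23 (17 arrays, 0.92 ± 0.17) and the killer cell receptor Cd244a by 0.47 ± 0.10 (17 arrays, 0.45 ± 0.11). Foxp3, the transcription factor that defines regulatory T cells, did not pass in either comparison, at -0.11 and -0.09. Il18r1, a receptor chain for interleukin 18, rose by 2.22 ± 0.41 (17 arrays, 1.79 ± 0.32) and Ikzf1, the lymphocyte transcription factor Ikaros, by 2.24 ± 0.39 with 19 arrays and 1.78 ± 0.22 with 17.

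Chemokines that attract lymphocytes and their receptors rose in 10 of 15 measured genes with 19 arrays and 11 with 17. The shares over all genes were 8.90% and 7.92%. Cxcl9, the interferon gamma-induced ligand of Cxcr3, ranged over 10.78 to 13.20 (median 11.59) in Responder and 9.36 to 10.80 (median 10.07) in NonResponder. The lowest Responder array was replicate 3 at 10.78, and the other 9 lay above every NonResponder array. Cxcl9 rose by 1.67 ± 0.23 (adjusted p = 0.000453), and by 1.60 ± 0.16 (adjusted p = 2.09e-05) with 17 arrays, where the groups did not overlap. Ccl5, a chemokine of T cells, rose by 2.14 ± 0.32 (17 arrays, 1.83 ± 0.26), and Ccl3, Cxcl16 and the monocyte receptor Ccr2 by 1.46 ± 0.24 (17 arrays, 1.5 ± 0.24), 0.98 ± 0.17 (17 arrays, 0.82 ± 0.13) and 1.18 ± 0.20 (17 arrays, 1.10 ± 0.20). The interferon-induced Cxcl11 differed by -1.11 and -0.32 and passed in neither comparison.

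Macrophage genes rose in 15 of 17 measured members with 19 arrays and 12 with 17, where 8.90% and 7.92% of all genes rose. Slamf8, a receptor of activated macrophages, ranged over 7.89 to 10.55 (median 8.83) in Responder and 5.39 to 7.18 (median 6.52) in NonResponder and rose by 2.46 ± 0.29 (adjusted p = 9.33e-05; 17 arrays, 2.26 ± 0.25) without overlap. The chains of complement factor C1q, which tumour macrophages make, rose, C1qa by 1.26 ± 0.18 (17 arrays, 1.10 ± 0.15), C1qb by 1.21 ± 0.19 (17 arrays, 1.06 ± 0.16) and C1qc by 1.31 ± 0.20 (17 arrays, 1.14 ± 0.16), and the macrophage protein Aif1 by 1.42 ± 0.23 (17 arrays, 1.30 ± 0.23). Genes of lipid-laden and wound-type macrophages rose in 5 of 10 with 19 arrays and 6 with 17, with Apoe at 1.38 ± 0.25 (17 arrays, 1.10 ± 0.18), the lipase Lpl at 1.45 ± 0.25 (17 arrays, 1.21 ± 0.21) and the elastase Mmp12 at 1.73 ± 0.45 (17 arrays, 1.31 ± 0.36). Apoe and Lpl are also made by adipocytes, whose markers were high in some of these arrays. Of the first steps of the complement cascade, the proteases C1ra and C1s1 rose by 1.74 ± 0.20 (17 arrays, 1.56 ± 0.18) and 1.98 ± 0.29 (17 arrays, 1.65 ± 0.20), their inhibitor Serping1 by 1.86 ± 0.21 (17 arrays, 1.66 ± 0.16), and factor B (Cfb) by 1.4 ± 0.20 (17 arrays, 1.23 ± 0.17). Serping1 ranged over 10.47 to 12.67 (median 11.45) in Responder and 9.13 to 10.08 (median 9.58) in NonResponder. C1ra, C1s1 and Serping1 did not overlap between the groups, and 6 of 9 measured complement and coagulation genes rose with 19 arrays.

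Among other blood cell types, neutrophil genes rose in 2 of 14 with 19 arrays, the growth factor receptor Csf3r (0.86) and the collagenase Mmp8 (0.44), and in 1 with 17, Csf3r (0.70). The share of all genes that rose was 8.90% with 19 arrays and 7.92% with 17. With array weights 5 neutrophil genes rose, and with all 90 arrays and a mean per group and series 6 did. Of all 18193 genes, 2700 and 2610 rose in these alternatives. The call of Mmp8 was lost in 12 of 19 comparisons that left out 1 array (adjusted p up to 0.0766). The calprotectin genes S100a8 and S100a9 differed by 1.55 ± 0.61 (17 arrays, 1.34 ± 0.63) and 1.62 ± 0.65 (17 arrays, 1.32 ± 0.66) but varied widely within NonResponder, where S100a8 ranged over 5.02 to 10.48 (median 6.46), and neither passed (adjusted p = 0.0738 and 0.0784). Of the 13 dendritic cell genes measured, 2 rose in both comparisons, the lectin Clec10a (1.4 ± 0.30, and 1.26 ± 0.30 with 17 arrays) and the lymph node homing receptor Ccr7 (1.46 ± 0.37, and 0.97 ± 0.13). Xcr1, a marker of cross-presenting dendritic cells, differed by 0.28 ± 0.17 (adjusted p = 0.216; 17 arrays, 0.25 ± 0.14). Of 12 mast cell and eosinophil genes measured, 3 rose in each comparison. The medians of that list were 0.05 with 19 arrays and -0.02 with 17. With 19 arrays the mast cell proteases Cpa3 and Cma1 rose by 1.12 ± 0.30 and 1.15 ± 0.32. With 17 arrays they rose by 0.93 ± 0.26 and 0.80 ± 0.23, and these calls were lost without Responder replicates 1, 8 or 9 (Cpa3) and without NonResponder replicates 5 or 6 or Responder replicate 9 (Cma1), with adjusted p up to 0.0565.

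The antibody genes Ighm and Jchain rose by large amounts. The B cell surface genes Ms4a1 and Cd79a and the B cell transcription factor Pax5 passed in neither comparison. Ighm, the heavy chain of IgM, ranged over 8.79 to 13.19 (median 10.78) in Responder and 7.16 to 9.56 (median 8.19) in NonResponder and rose by 2.45 ± 0.48 (adjusted p = 0.00340), and by 2.09 ± 0.41 with 17 arrays. Jchain, which links secreted antibodies, ranged over 5.95 to 13.62 (median 8.43) in Responder and 4.76 to 9.5 (median 6.62) in NonResponder, where replicate 2 was highest, and rose by 2.75 ± 0.77 (adjusted p = 0.0257) and 2.28 ± 0.65 with 17 arrays. The groups overlapped for Jchain, and its call was lost when NonResponder replicate 8 was left out (adjusted p = 0.0529), and in the 17-array comparison without NonResponder replicates 6 or 8 or Responder replicates 8 or 9 (adjusted p up to 0.0612). With 19 arrays the 15 B cell and plasma cell genes held only the calls of Ighm and Jchain, at a median of 0.43. With 17 arrays 5 rose, Cd79b by 0.79 ± 0.19 and Cd22 by 0.58 ± 0.14 among them, and the median was 0.20. The share of all genes that rose was 8.90% with 19 arrays and 7.92% with 17. Cd79b was at 12.58 in replicate 3 and ranged over 6.14 to 7.45 (median 7.05) in the other 8 Responder arrays. Ltb, a lymphotoxin chain that organises lymphoid tissue and is made by lymphocytes, rose by 2.36 ± 0.44 and by 1.85 ± 0.27 with 17 arrays. The other lymph node markers did not rise with 17 arrays: Glycam1 was at 12.49 in replicate 3 and ranged over 4.33 to 4.98 (median 4.48) in the other 8, with a difference of -0.13 ± 0.11, and the venule addressin Madcam1 fell by 0.41 on the log2 scale (adjusted p = 0.0221), a call lost without Responder replicate 9 (adjusted p = 0.0521) and, with 19 arrays, without NonResponder replicate 8 (adjusted p = 0.0513).

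**Figure D3:**
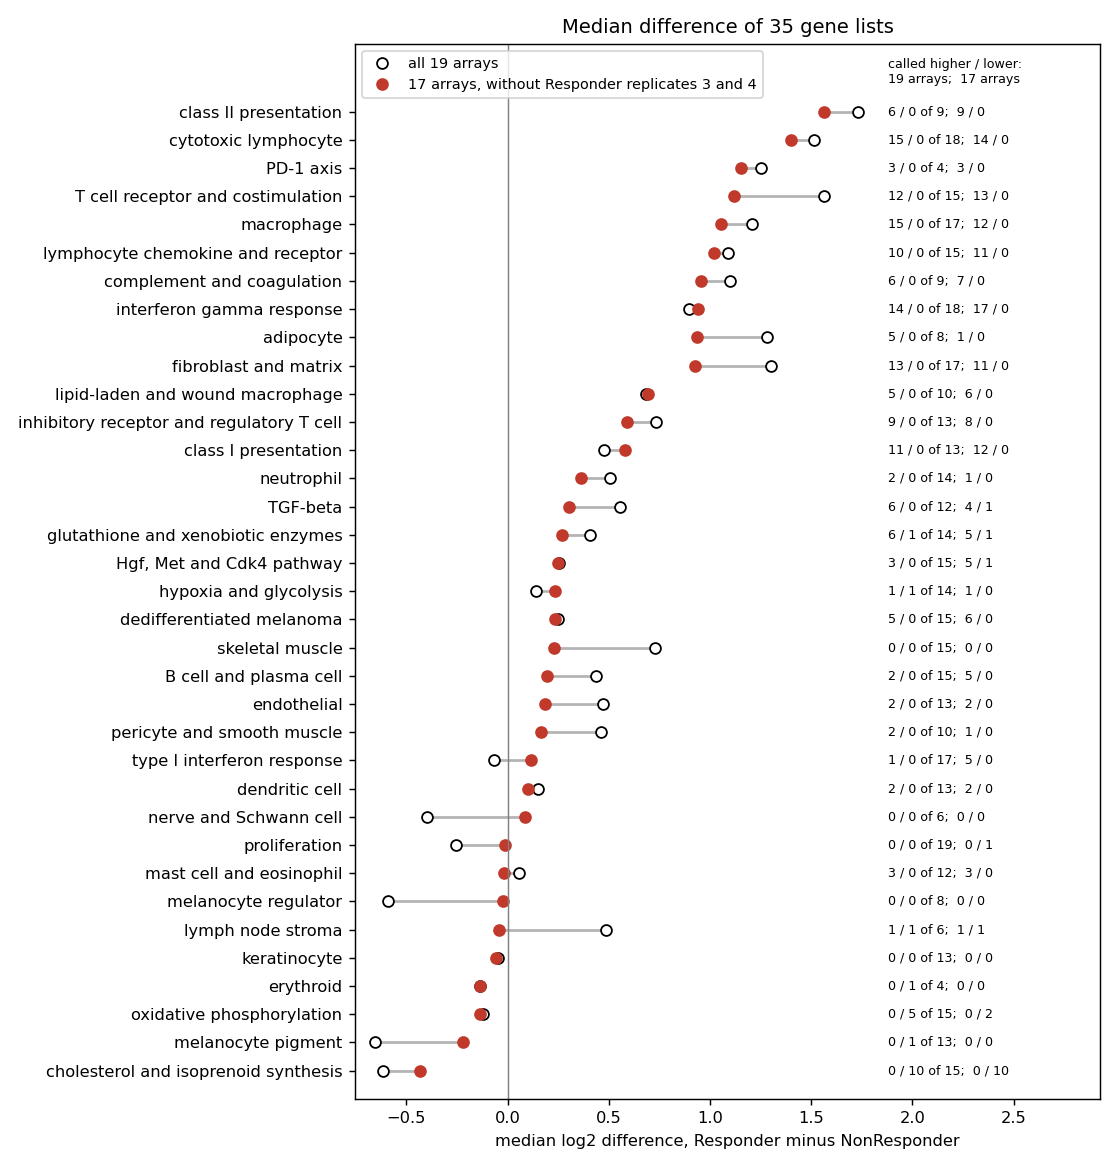
Median log2 difference, Responder minus NonResponder, of the measured members of 35 gene lists with all 19 arrays (open circles) and with 17 arrays (red circles), with the members called higher and lower beside each list. The T cell, cytotoxic, class II and interferon gamma lists keep medians near or above 1 in both, cholesterol synthesis keeps a negative one, and melanocyte, skeletal muscle and lymph node lists lie closer to 0 without replicates 3 and 4.

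Connective tissue genes rose too. Of 17 fibroblast and matrix genes measured, 13 rose with 19 arrays (median 1.30) and 11 with 17 (median 0.92). Over all genes 8.90% rose with 19 arrays, and 7.92% rose and 5.06% fell with 17. Dcn, the proteoglycan decorin, ranged over 9.89 to 12.95 (median 11.59) in Responder and 7.98 to 10.81 (median 9.86) in NonResponder and rose by 1.75 ± 0.37 (adjusted p = 0.00599; 1.44 ± 0.33 with 17 arrays). Lum, Col6a2, the receptor Pdgfra and the surface protein Thy1 rose by 1.72 ± 0.38 (17 arrays, 1.35 ± 0.31), 1.72 ± 0.44 (17 arrays, 1.26 ± 0.31), 1.72 ± 0.36 (17 arrays, 1.32 ± 0.27) and 1.64 ± 0.36 (17 arrays, 1.19 ± 0.22). The mean of this list was 12.68 in replicate 4 and 11.30 in replicate 3, and 9.30 to 11.22 in the other Responder arrays. The number of calls depended on single arrays, with 7 at the lowest (without NonResponder replicate 8) and 6 in the 17-array comparison (without Responder replicate 9). Itih5, a hyaluronan-binding matrix protein, rose by 2.43 ± 0.46 and 1.99 ± 0.38 with 17 arrays. In the transforming growth factor beta list 6 of 12 genes rose with 19 arrays and 4 with 17, where the ligand Tgfb2 fell (-0.28 ± 0.09; not without NonResponder replicates 2, 4, 5, 6 or 9 or Responder replicates 1, 10, 5 or 8, adjusted p up to 0.0874). Tgfb1, the ligand, rose by 1.34 ± 0.32 (17 arrays, 0.91 ± 0.15), its latency protein Ltbp1 by 1.04 ± 0.14 (17 arrays, 0.95 ± 0.14), the target Tgfbi by 1.30 ± 0.23 (17 arrays, 1.06 ± 0.18) and the receptor Tgfbr2 by 0.55 ± 0.15 (17 arrays, 0.37 ± 0.10). Endothelial genes rose in 2 of 13 in each comparison, where 8.90% of all genes rose with 19 arrays and 7.92% with 17. The adhesion molecule Pecam1 rose by 1.07 ± 0.33 (17 arrays, 0.62 ± 0.17). The angiopoietin receptor Tek rose by 0.98 ± 0.27 (17 arrays, 0.67 ± 0.18), and both calls depended on single arrays. The 19-array call of Pecam1 was lost without NonResponder replicates 2, 3, 4, 5, 6 or 8 or Responder replicates 3, 5 or 9 (adjusted p up to 0.0710) and its 17-array call without NonResponder replicate 8 or Responder replicates 5, 8 or 9 (adjusted p up to 0.0593). The 17-array call of Tek was lost without Responder replicate 1 (adjusted p = 0.0553).

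Markers of neighbouring tissue gave a mixed picture. Of 8 adipocyte genes 5 rose with 19 arrays and 1 with 17. The median of these genes was 1.28 with 19 arrays and still 0.94 with 17. With single arrays left out, 1 to 6 of them rose in either comparison. Over all genes 8.90% rose and 8.36% fell with 19 arrays, and 7.92% rose and 5.06% fell with 17. Adipoq, the hormone adiponectin, differed by 3.27 ± 0.98, with values of 5.44 to 13.32 (median 10.92) in Responder and 4.57 to 9.94 (median 6.49) in NonResponder. It passed with 19 arrays (adjusted p = 0.0327) but not with 17 (2.89 ± 0.97, adjusted p = 0.0553), nor with 19 arrays less NonResponder replicates 2, 5, 6 or 8 or Responder replicates 1, 3 or 9 (adjusted p up to 0.0592). Pparg, the fat cell transcription factor that macrophages also express, rose in both, by 1.26 ± 0.28 and 1.0 ± 0.22. Skeletal muscle genes had no call among 15 in either comparison, at medians of 0.73 and 0.23. No keratinocyte gene of 13 was called, and the list's median was -0.05 with 19 arrays and -0.06 with 17. Pericyte and smooth muscle genes rose in 2 of 10 with 19 arrays and 1 with 17, beside 8.90% and 7.92% of all genes. Of 6 nerve and Schwann cell genes none was called, and of 4 erythroid genes 1 fell with 19 arrays, Hba-a2 (-1.16), a call lost in 11 of 19 comparisons that left out 1 array (adjusted p up to 0.0768), and none with 17. Cdo1, the enzyme cysteine dioxygenase of liver and fat, was among the 15 largest rises at 2.38 ± 0.70, with Responder values of 4.98 to 11.85 (median 8.21), the highest of them in replicate 3. With 17 arrays the rise of Cdo1 was 1.87 ± 0.59 (adjusted p = 0.0445), and the call was lost in 11 of 17 comparisons that left out 1 more array (adjusted p up to 0.0972). With 19 arrays it was lost without NonResponder replicates 2, 5, 6 or 8 or Responder replicate 1 (adjusted p up to 0.0531).

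Melanocyte genes were called lower at about the rate of all genes, and the count depended on the scaling. Of 13 pigment genes 0 rose and 1 fell with 19 arrays, where 8.36% of all genes fell. With each array centred on its median, 4 fell with 19 arrays and 5 with 17, where 5824 and 4451 of all 18193 genes fell. None passed with 17 arrays as deposited, where 5786 of all genes had an unadjusted p under 0.05 in limma and 2361 passed. The gene that fell was the channel Trpm1, at -0.39 ± 0.12 and, with 17 arrays, -0.34 ± 0.12 (adjusted p = 0.0719); its 19-array call was lost without NonResponder replicates 3, 5, 6 or 8 or Responder replicates 1, 3, 4, 8 or 9 (adjusted p up to 0.0635). The median difference of the pigment genes was -0.65 with 19 arrays and -0.22 with 17. Pmel, the fibril protein of pigment granules, was at 5.91 and 6.66 in replicates 3 and 4. In the other 8 Responder arrays Pmel ranged over 10.85 to 12.05 (median 11.42), against 11.29 to 12.58 (median 11.83) in NonResponder, a difference of -0.45 ± 0.21 (adjusted p = 0.141). Of the 8 regulators of the lineage none passed in either comparison, and the median moved from -0.59 with 19 arrays to -0.02 with 17. Mitf, the master regulator of melanocytes, differed by -0.61 ± 0.40 and -0.01 ± 0.08. Pax3, its upstream regulator, was among the 5 genes whose difference changed most between the comparisons, from -1.28 ± 0.74 to -0.15 ± 0.09. The others were Cdkn2a (-0.80 ± 0.77 and 0.36 ± 0.16), Nrcam (-1.11 ± 0.68 and -0.07 ± 0.09), Rec114 (-1.67 ± 0.71 and -0.61 ± 0.15) and Nppb (-1.72 ± 0.77 and -0.57 ± 0.16). Nppb, the natriuretic peptide BNP, and Rec114, a meiotic recombination factor, passed the test with 17 arrays alone (adjusted p = 0.0235 and 0.0126; Nppb not without Responder replicates 1 or 5, adjusted p up to 0.0517), with values of Nppb of 11.04 to 12.15 (median 11.72) in the 8 Responder arrays and 11.73 to 12.59 (median 12.31) in NonResponder.

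Genes linked to a dedifferentiated melanoma state rose in 5 of 15 with 19 arrays and 6 with 17. The share of all genes that rose was 8.90% with 19 arrays and 7.92% with 17. Axl, a receptor tyrosine kinase that macrophages and fibroblasts also carry, ranged over 9.92 to 10.94 (median 10.24) in Responder and 9.07 to 9.67 (median 9.39) in NonResponder, without overlap. It rose by 0.99 ± 0.13 (adjusted p = 0.000225) and by 1.0 ± 0.12 with 17 arrays. The AP-1 subunit Jun rose by 1.08 ± 0.27 (17 arrays, 0.82 ± 0.16) and the transcription factors Zeb1 and Twist1 by 1.15 ± 0.34 (17 arrays, 0.69 ± 0.14) and 0.74 ± 0.22 (17 arrays, 0.47 ± 0.11). With 19 arrays the call of Zeb1 was lost without NonResponder replicates 6 or 8 (adjusted p up to 0.0522) and that of Twist1 without NonResponder replicates 3, 5, 6 or 8 or Responder replicate 3 (adjusted p up to 0.0601). Axl, Zeb1 and Twist1 are also expressed in connective tissue or macrophages, most of whose measured genes rose in the same arrays (13 of 17 and 15 of 17), and the part of these cells in the rises was not tested.

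The engineered genes themselves gave no 19-array call. Hgf differed by -1.08 ± 0.68 (adjusted p = 0.232) with 19 arrays and by -0.07 ± 0.16 (adjusted p = 0.750) with 17. Met, its receptor, was at 12.22 to 12.62 (median 12.48) in NonResponder and 12.26 to 12.75 (median 12.47) in the 8 Responder arrays, with differences of -0.65 ± 0.47 and 0.06 ± 0.08. Cdk4 ranged over 10.91 to 11.41 (median 11.17) in the 8 Responder arrays and 11.27 to 11.61 (median 11.41) in NonResponder. Its difference was -0.54 ± 0.20 (adjusted p = 0.0670) with 19 arrays and -0.25 ± 0.08 (adjusted p = 0.0368) with 17, a call that was lost without NonResponder replicates 5, 6 or 8 or Responder replicates 1, 5, 8 or 9 (adjusted p up to 0.0843). Cdk6, the sister kinase of Cdk4, ranged over 8.10 to 9.96 (median 9.0) in Responder and 7.36 to 8.19 (median 7.86) in NonResponder and rose by 1.21 ± 0.20 (adjusted p = 0.00126; 0.99 ± 0.16 with 17 arrays). In the list of 15 genes around Hgf, Met and Cdk4, 3 rose with 19 arrays, and 5 rose and 1 fell with 17. Of all genes, 8.90% rose with 19 arrays, and 7.92% rose and 5.06% fell with 17. Rb1, the retinoblastoma protein that Cdk4 phosphorylates, rose by 0.62 ± 0.18 (17 arrays, 0.42 ± 0.11), a 19-array call lost without NonResponder replicates 3 or 8 (adjusted p up to 0.0514).

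Cell cycle genes gave no call among 19 with 19 arrays (median -0.26), against 7086 of all genes with an unadjusted p under 0.05 and 3141 passing in limma. With 17 arrays Bub1, a spindle checkpoint kinase, passed, with a difference of -0.31 ± 0.09 (adjusted p = 0.0247). It was the 1 call of the list there, where 5.06% of all genes fell, and the list's median was -0.01. Bub1 was at 8.40 and 6.96 in replicates 3 and 4, ranged over 9.67 to 10.46 (median 10.17) in the other 8 Responder arrays and over 10.30 to 10.65 (median 10.44) in NonResponder. When each array was centred on its median, 3 and 7 proliferation genes fell with 19 and 17 arrays. Of all 18193 genes, 5824 and 4451 fell under that centring.

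Enzymes of cholesterol synthesis fell. Of 15 measured genes 10 fell with 19 arrays and 10 with 17, none rose, and the medians were -0.62 and -0.43, where 8.36% and 5.06% of all genes fell. Idi1, the isomerase that makes the building block of isoprenoids, ranged over 7.2 to 10.77 (median 10.06) in Responder and 10.57 to 11.42 (median 11.12) in NonResponder, with replicate 4 lowest. With 19 arrays it fell by 1.23 log2 units (SE 0.36; adjusted p = 0.0304, up to 0.0541 without NonResponder replicates 2, 3, 6 or 8). With 17 arrays it fell by 0.76 (SE 0.17; adjusted p = 0.00609). Sc5d, a late enzyme of the pathway, ranged over 7.35 to 8.51 (median 8.11) in Responder and 8.36 to 8.85 (median 8.62) in NonResponder, with a difference of -0.55 ± 0.13 (17 arrays, -0.52 ± 0.10). Squalene synthase (Fdft1) differed by -0.62 ± 0.15 (17 arrays, -0.43 ± 0.10), the sterol dehydrogenase Nsdhl by -0.81 ± 0.23 (17 arrays, -0.51 ± 0.11) and the decarboxylase Mvd by -0.63 ± 0.17 (17 arrays, -0.44 ± 0.13). With 19 arrays the number of falls in this list dropped to 4 when NonResponder replicate 3 was left out, and with 17 arrays it stayed at 8 or more.

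Mitochondrial respiration genes fell in 5 of 15 with 19 arrays and 2 with 17, where 8.36% and 5.06% of all genes fell. With each array centred on its median 8 fell in both comparisons, and with quantile normalization 4 in both. Of all 18193 genes, 5824 (19 arrays) and 4451 (17 arrays) fell with centring, and 1802 and 1448 with quantile normalization. Uqcrfs1, the Rieske protein of complex III, ranged over 10.99 to 11.42 (median 11.26) in Responder and 11.39 to 11.58 (median 11.50) in NonResponder and differed by -0.27 ± 0.07 and -0.26 ± 0.06. Ndufa4, a cytochrome oxidase subunit, differed by -0.48 ± 0.14 and -0.31 ± 0.09. Its calls were lost in 6 of 19 and 10 of 17 comparisons that left out 1 array, among them those without NonResponder replicate 8 or Responder replicate 9. In the hypoxia and glycolysis list the regulator of glycolysis Pfkfb3 rose in both, by 1.39 ± 0.30 and 0.98 ± 0.15, with no overlap of the groups. It was the single rise among 14 genes, where 8.90% and 7.92% of all genes rose. Ankrd37, a hypoxia-induced gene, differed by -0.65 ± 0.20 with 19 arrays and -0.47 ± 0.17 with 17, where it did not pass (adjusted p = 0.0721); its 19-array call was lost without NonResponder replicates 2, 3 or 8 or Responder replicates 1, 3, 5 or 9 (adjusted p up to 0.0632).

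The largest of the falls called in both comparisons was Gsta4, a glutathione transferase that clears products of lipid oxidation. It ranged over 7.02 to 9.81 (median 8.98) in the Responder arrays and 10.35 to 11.18 (median 10.70) in the NonResponder arrays, and every Responder array lay below every NonResponder array. Gsta4 was 4.56-fold lower in Responder (-2.19 ± 0.32, adjusted p = 0.000480) and 3.53-fold lower with 17 arrays (-1.82 ± 0.22, adjusted p = 6.27e-05). In the list of 14 glutathione and xenobiotic enzymes, 6 rose with 19 arrays and 5 with 17, and Gsta4 was the 1 fall in each. The rest were not called, and over all genes 8.90% and 7.92% rose. Gpx3, a secreted peroxidase, rose by 1.74 ± 0.43 (17 arrays, 1.32 ± 0.33), Gstt1 by 0.91 ± 0.24 (17 arrays, 0.61 ± 0.14) and Gstm2 by 0.94 ± 0.28 (17 arrays, 0.58 ± 0.16). The 19-array call of Gstm2 was lost without NonResponder replicates 3, 6 or 8 or Responder replicate 9 (adjusted p up to 0.0609). The count of rises in this list dropped to 2 without NonResponder replicate 6.

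The other genes among the 15 largest falls belong to varied functions, and those given here differed by more with replicates 3 and 4 than without them. Slc26a7, an anion exchanger, ranged over 4.14 to 8.33 (median 7.17) in Responder and 7.78 to 9.67 (median 8.56) in NonResponder and differed by -1.90 ± 0.47, or -1.27 ± 0.24 with 17 arrays. Azgp1, a secreted lipid-mobilising glycoprotein, differed by -1.67 ± 0.36 and kept most of that at -1.52 ± 0.37. Ptgds, a prostaglandin D2 synthase that melanocytes express, differed by -1.62 ± 0.45 and -1.04 ± 0.26. Ugt8a, an enzyme of myelin lipid synthesis, and Enpp6, a choline phosphodiesterase, differed by -1.34 ± 0.36 and -1.33 ± 0.45, and by -0.96 ± 0.18 and -0.69 ± 0.18 with 17 arrays. The 19-array call of Enpp6 was lost in 15 of 19 leave-one-out comparisons (adjusted p = 0.0784 without NonResponder replicate 8), while its 17-array call held in all of them. Rrh, an opsin-like protein, differed by -1.31 ± 0.39 and -0.77 ± 0.16, Gng8, a G protein subunit, by -1.46 ± 0.38 and -0.94 ± 0.18, and Cth, which makes cysteine, by -1.22 ± 0.30 and -1.0 ± 0.28. The 19-array call of Rrh was lost without NonResponder replicates 3, 6 or 8 (adjusted p up to 0.0639), and the 17-array call of Cth without NonResponder replicate 8 or Responder replicates 1, 5 or 9 (adjusted p up to 0.0606). The remaining members of the 15 were Csrnp3, Spink8, Spdye4a, Gulp1, Flywch2 and Idi1, with differences between -1.60 (Csrnp3) and -1.23 (Idi1) with 19 arrays. Among the rises not yet described, the kinase Stk26 had 2.45 ± 0.41 and 1.99 ± 0.29, and Ipcef1, an exchange factor partner, 2.27 ± 0.46 and 1.76 ± 0.32.

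In the larger title series, which holds 17 Responder and 14 NonResponder arrays under the same treatment label, the differences were measured in other samples. With its own low-correlation array left out (30 arrays), 3621 genes were called there (19.9%), and with that array 169. Of the 2361 genes called in the 17 arrays, 1184 were called in both, which is 50.1% of the one list and 32.7% of the other, and 0 of these had the opposite sign. All 15 of the largest rises had the same sign in the larger series and 13 were called. All 15 of the largest falls had the same sign and 4 were called. Each of the 30 had a smaller size in the larger series, and they were chosen for their size in the smaller one. Gbp2b rose by 1.60 ± 0.47 there (adjusted p = 0.0233), Cd3g by 1.90 ± 0.43 (adjusted p = 0.0103), and Cd274 by 0.65 ± 0.18, at adjusted p = 0.0186. Gsta4 differed by -0.98 ± 0.34 (adjusted p = 0.0410). Cdo1, at 0.36 ± 0.36 (adjusted p = 0.449), was one of the rises that did not pass. The medians of the interferon gamma, T cell and cholesterol lists in the larger series were 0.74, 0.87 and -0.37. In the interferon gamma list 17 of 18 genes rose there, and in the T cell list 13 of 15 rose and 1 fell. In the cholesterol list 0 of 15 genes were called in the larger series, against 10 falls in the smaller one. Of all 18193 genes, 1485 rose and 2136 fell in the larger series, and 1441 rose and 920 fell in the 17 arrays.

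A limma contrast over all 90 arrays tested the difference of the differences, that of the smaller minus that of the larger title series. No gene passed (0 of 18193), the smallest adjusted p was 0.0586, and 2418 genes had an unadjusted p under 0.05, or 677 without low-correlation arrays, where again none passed. The 5 genes with the smallest p were Bbs9, Cyp11b1, D2hgdh, Zfy2 and H2-Ea, all with small differences in the smaller series, between -0.38 (Cyp11b1) and 0.20 (D2hgdh). A missed threshold does not show that the series respond alike. The interaction for Gbp2b was 1.47 ± 0.68 (unadjusted p = 0.0348, adjusted p = 0.355) and that for Gsta4 -1.53 ± 0.55 (unadjusted p = 0.00713, adjusted p = 0.323). Without the low-correlation arrays the interaction was 1.33 ± 0.69 for Gbp2b (unadjusted p = 0.0566) and -0.84 ± 0.47 for Gsta4 (unadjusted p = 0.0751), each with an adjusted p of 1.

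**Figure D4:**
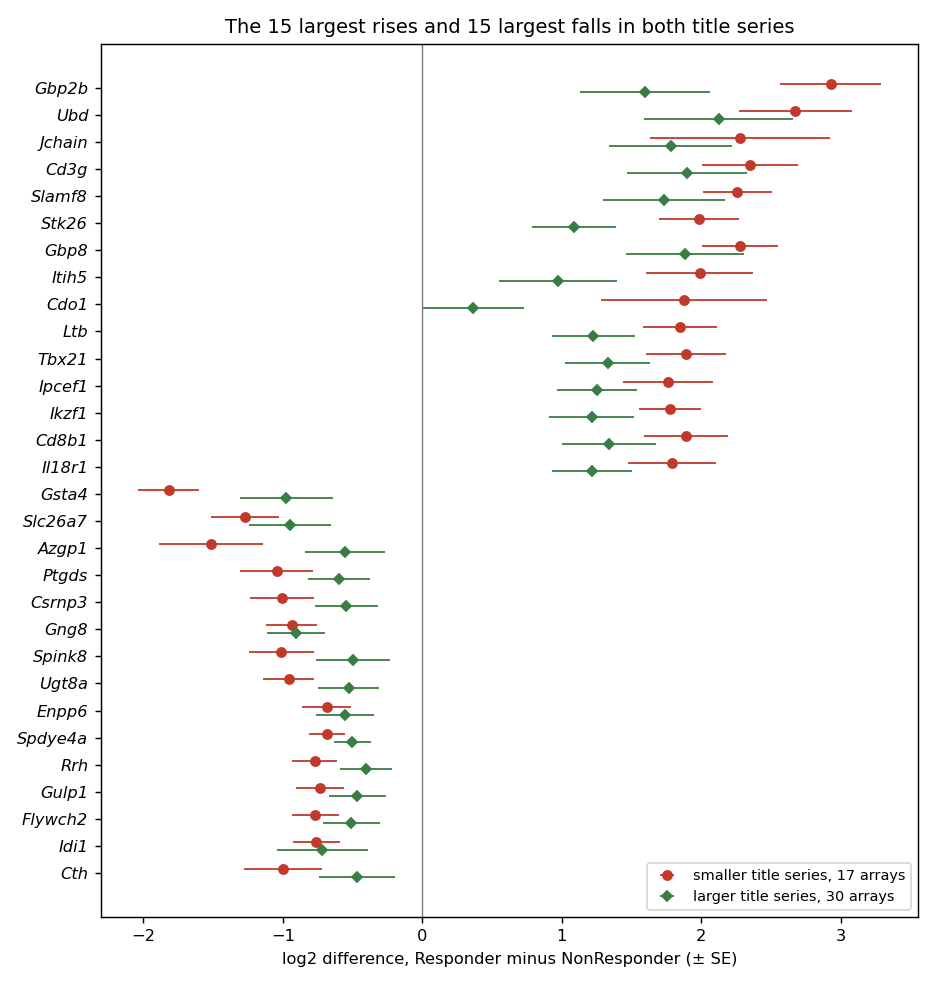
log2 difference, Responder minus NonResponder, with its standard error for the 15 largest rises and 15 largest falls, in the smaller title series (red circles, 17 arrays) and the larger title series (green diamonds, 30 arrays). All 30 genes have the same sign in both series and a smaller size in the larger one, from which they were not chosen.

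Within the groups, levels of 5 genes were set against Cd3g as a measure of T cell signal. In all, 15 relations were computed. Over all 10 Responder arrays, replicates 3 and 4 included, the macrophage receptor gene Csf1r had Pearson's r = 0.84 with Cd3g (permutation p = 0.00303, adjusted over 10 relations 0.0258) and Spearman's rho = 0.77 (permutation p = 0.0126, adjusted 0.107). Pmel had r = -0.76 (permutation p = 0.00515, adjusted 0.0258) and rho = -0.65 (permutation p = 0.0488, adjusted 0.148). Without the 2 arrays farthest from the median of Cd3g, replicates 3 and 6, r was 0.70 for Csf1r and -0.63 for Pmel. Replicate 4, where Pmel was also low, was kept in these values. Over the 8 Responder arrays without replicates 3 and 4, Csf1r had r = 0.73 (exact permutation p = 0.0348, adjusted over 5 relations 0.174) and rho = 0.57 (p = 0.151, adjusted 0.328, exact permutation). Without the 2 arrays farthest from the median of Cd3g, r was 0.09, so that the relation over 8 arrays rests on those. Pmel had r = -0.31 over these 8 arrays (exact permutation p = 0.489, adjusted 0.492). Over the 9 NonResponder arrays Cd274 had r = 0.76 with Cd3g (exact permutation p = 0.0170, adjusted over the same 10 relations 0.0566) and rho = 0.77 (p = 0.0214, adjusted 0.107, exact permutation), and r was 0.91 without the 2 farthest arrays. None of the relations of Cd3g with Cd274, Pmel, Csf1r, Col1a1 or Mki67 passed after adjustment in the 8 Responder or the 9 NonResponder arrays.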

How the data were processed

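RNA of each tumour was purified on columns, 800 ng were amplified, labelled with biotin and hybridised to 1 Affymetrix mouse array, per the labels' protocols. The values deposited by the authors are log2 intensities; RMA and limma are named as tools, per the submitters' processing notes, and their versions are not given in the sources used here. Of 45101 probe sets, 64 are controls and were not tested, 34945 carried 1 gene symbol in the platform annotation, 932 several and 9160 were not listed. For each of 18193 genes the brightest probe set on average over the 90 arrays was used. No pair of columns was identical.

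Differences were fitted to the 19 arrays alone with limma 3.58.1 in R 4.3.3 (lmFit, eBayes), two-sided, with Benjamini-Hochberg adjustment over all genes, called under 0.05. Arrays with a mean correlation under 0.95 with all others were left out in the 17-array comparison. The procedure was tested on simulated data. Replicate numbers follow accession order and pair nothing. Alternatives were other normalizations, filters, probe sets, samples and tests.

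The genes named are the 15 largest rises and 15 largest falls called with the same sign in both comparisons (immunoglobulin and T cell receptor genes and unnamed transcripts skipped), up to 5 members of each list with the smallest p, Cd274, Pdcd1, Hgf, Met and Cdk4, the 5 smallest interaction p-values and the 5 largest changes between the comparisons. Of the other genes named, B2m, Cd4, Cd79a, Cxcl11, Foxp3, Ifng, Ms4a1, Nos2, Pax5, Socs1 and Tgfb2 were chosen after their values were seen. The comparison and the 35 lists were chosen with earlier results of these data known. Promoter windows are RefSeq sequence of build GRCm38.p6. No windows were used for Ciita, Gbp6, Gbp8, Ido1, Iigp1 and Nos2.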

Additional observations from a re-analysis of the deposited data

Results flagged for a closer look

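Among 140 groups of values looked at (the largest changes and the list means, in each group), 16 had 1 array whose gap to its nearest neighbour was unusually wide for its group, where chance gives about 1 in 20. Responder replicate 3 was highest for the mean log2 of the lymph node stroma list (8.73, others 5.14 to 5.76), the B cell and plasma cell list (10.6, others 6.49 to 7.26), the class II list (12.1, others 8.74 to 10.4), the dendritic cell list (8.08, others 7.14 to 7.51) and the keratinocyte list (5.35, others 4.45 to 4.87). It was lowest for the nerve and Schwann cell list (6.63, others 8.22 to 8.97), the hypoxia and glycolysis list (9.3, others 9.82 to 10.3) and for Ugt8a (3.08, others 5.72 to 7.21).

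Responder replicate 4 was highest for the dedifferentiated melanoma list (8.58, others 7.69 to 8.08) and the TGF-beta list (9.99, others 8.03 to 9.0) and lowest for the proliferation list (8.31, others 9.37 to 10.2). Responder replicate 6 was lowest for the lymphocyte chemokine list (8.79, others 9.37 to 9.97). In NonResponder, replicate 2 was highest for Jchain (9.5, others 4.76 to 6.98), the macrophage list (9.5, others 8.54 to 9.02) and the neutrophil list (6.64, others 5.18 to 5.85), and replicate 6 lowest for the fibroblast and matrix list (8.3, others 9.14 to 9.98). The reason for these values was not tested.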

How the results depend on the processing

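Of 201 named genes, 130 were called with 19 arrays and 91 of these were called under each alternative tried. The 3141 calls became 5415 with Stabilization counted as Responder, 6678 with all 90 arrays and a mean per group and series, 8552 with an additive series term, 6305 with array weights and 7232 with median centring, and 1423 to 4429 with single arrays left out. Leaving out Responder replicate 1, 5 or 9 or NonResponder replicate 2, 3, 5, 6 or 8 moved the count by over 1.5 times. Centring turned the split from 51.6% higher to 19.5% (1408 higher, 5824 lower) and the median of all genes from -0.08 to -0.18; no named gene reversed under it. With 17 arrays, in alternatives chosen after seeing the data, the 2361 calls became 5690 with centring (21.8% higher, against 61.0%) and 1554 with the rank-sum test, and quantile normalization gave 48.0% higher. Single arrays left out gave 1399 to 3111 calls, and Responder replicates 1, 5 and 9 each moved the count by over 1.5 times. The 650 calls above 2-fold became 339 without the low-correlation arrays (also with the limit over all probe sets), 183 with the additive term and 309 with a 1.2-fold minimum, and 461 to 813 with single arrays left out. The 339 ranged from 274 to 460. None of these causes was tested. Signs reversed for Bbs9 (-0.16), H2-Ea (-0.14) and Zfy2 (-0.31) with the additive term and for Ttn (-0.25) over all probe sets; none of the 4 was called with 19 arrays. No paired analysis was possible because the replicate numbers only name the samples.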
